A study of Homo sapiens with 5 samples.

Results

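The genes followed here, chosen by name, belong to the cytokine receptor pathway that keeps TF-1 cells alive: the receptor chains *CSF2RA*, *CSF2RB*, *IL3RA*, *IL5RA*, *EPOR*, and *KIT*, the kinase *JAK2*, and the transcription factors *STAT5A*, *STAT5B*, and *STAT3*. All 10 had a row among the 27328 genes of the count table, and all 10 passed the filter on low counts that left 14391 genes for testing. TF-1 is an established human AML cell line that was grown with recombinant GM-CSF. The libraries used here came from RNA of 2 control pools, whose sgRNA targets the *renilla luciferase* gene, and of 3 *MTSS1* knockout pools. The knockout pools were made with sgMTSS1_1, sgMTSS1_2, and sgMTSS1_3 and are named knockout pools 1 to 3 here. Every cell, control or knockout, had received a lentiviral vector with Cas9 and GFP, and each pool joined 4 single-cell clones, so a replicate is a set of clones and every knockout replicate carries a different sgRNA. No group had been treated with a drug.

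GM-CSF, interleukin-3, and interleukin-5 each bind an α chain of their own (encoded by *CSF2RA*, *IL3RA*, and *IL5RA*), which then joins a β chain that all of them share (*CSF2RB*). The β chain and the erythropoietin receptor (*EPOR*) have no enzyme activity and rely on the tyrosine kinase JAK2, which phosphorylates STAT5A and STAT5B, and these enter the nucleus and switch on genes for survival and feedback control. KIT, the receptor for stem cell factor, is itself a tyrosine kinase. STAT3 is the related factor used by the interleukin-6 family of cytokines.

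Levels are given as CPM, read counts scaled to library size with TMM factors. The libraries were primed at the poly(A) tail and read near the 3′ end, so that a transcript gives about the same number of reads whatever its length, and CPM can be compared between genes without dividing by length. Totals were 2849979 and 3408827 counts in the control libraries and 5442639 to 8854899 in the knockout libraries, so every knockout library was deeper, and 1 count was worth 0.130 to 0.313 CPM. *MTSS1* itself stood at 204 and 87.9 CPM in control pools 1 and 2, and at 104, 139, and 49.9 CPM in knockout pools 1 to 3. The groups overlapped. In the study, the clones pooled for the knockout had been shown by immunoblot to lack MTSS1 protein. The study places the sites of sgMTSS1_1 and sgMTSS1_2 in the first exon, whereas the reads come from the end of the transcript. This mRNA count therefore does not check the labels. *NDUFB9* also overlaps the last exon of *MTSS1* on the opposite strand, and whether counting used strand is not given in the sources used here. Of the cell type markers, the 4 progenitor markers summed to between 710 and 947 CPM and the 8 erythroid ones to between 1287 and 2306 CPM over the 5 libraries. The marker lists did not move as units. Of the erythroid markers, *TFRC* had a mean of 624 CPM in the control and 1168 CPM in the knockout libraries, and *KLF1* 144 and 209 CPM. *GATA1* was at 95.4 and 64.7 CPM, and the other 5, among them *HBG2* at 553 and 203 CPM, overlapped between the groups. Of the 3 megakaryocytic markers with a row, *ITGA2B* had a mean of 102 CPM in the control and 213 CPM in the knockout libraries, while *GP1BA* was at 13.2 and 13.4 CPM and *GP9* at 3.07 and 2.19 CPM. Of the 4 monocytic and granulocytic ones, *ITGAM* was at 6.70 and 13.1 CPM by mean, while *MPO* was at 1.37 and 0.675, *LYZ* at 0.923 and 0.511, and *CD14* at 0.149 and 0.161 CPM. The 3 lymphoid markers summed to 7.82 to 12.8 CPM in the control and 4.15 to 8.0 CPM in the knockout libraries. The 4 epithelial and fibroblast markers with a row summed to at most 1.19 CPM, and no gene of any marker list passed the test.

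None of the 10 genes differed between knockout and control pools by the thresholds used in the study, an adjusted p-value under 0.05 together with a log2-fold change above 1 or below −1 (0 of 10). Of all tested genes, 5.18% passed, 4.17% as higher and 1.01% as lower in the knockout, so 0 of 10 is near the background. With DESeq2, the test the authors used, the count was also 0. No gene of the 10 had an unadjusted p-value under 0.05 in the main edgeR fit. With other filters in edgeR, *KIT* had an unadjusted p-value of 0.026 (no filter on low counts) and 0.045 (at least 10 counts in every library). The median log2-fold change of the 10 was 0.10, against −0.03 over all tested genes, with 5 genes above and 5 below 0. The smallest change that passed anywhere in the table was 1.17 on the log2 scale, and the standard errors of the 10 genes were 0.29 to 0.67. For *CSF2RB* and *KIT* the lowest knockout value exceeded the highest control value, and for *STAT5B* the highest knockout value lay under the lowest control value. Among all tested genes, 22.2% lay wholly above and 19.2% wholly below, so 2 and 1 of 10 are near the background. In RNA from whole cultures, fewer cells with a transcript and less of it per cell cannot be told apart.

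**Figure D1:**
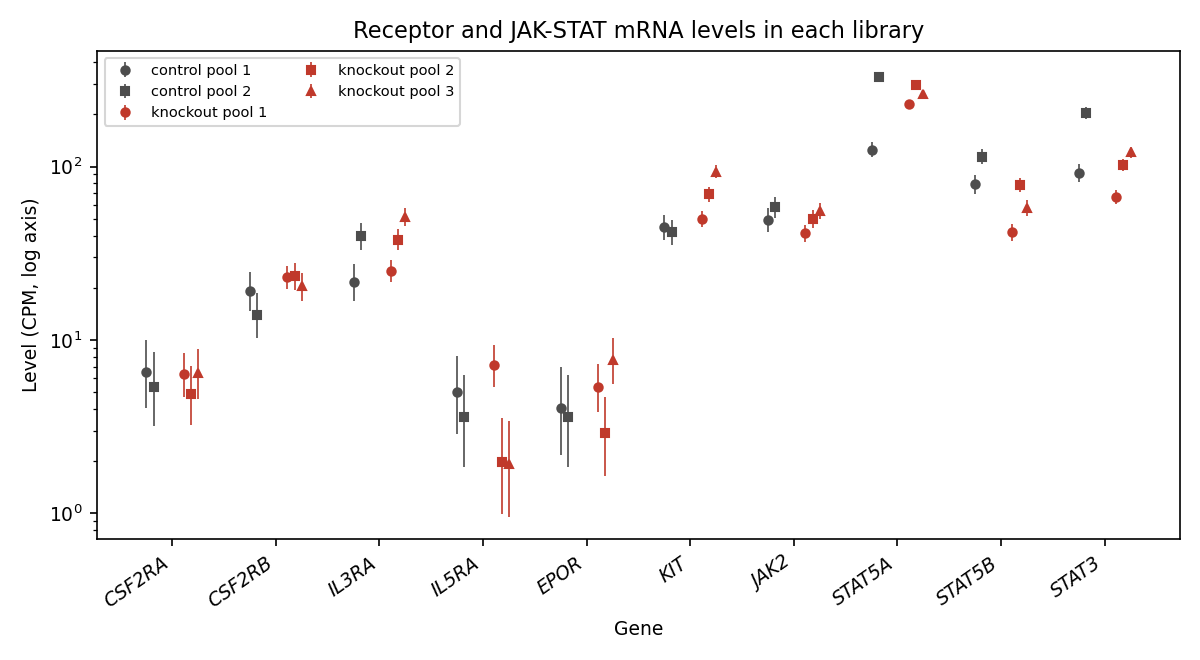
Levels of the 10 genes in each library, in CPM on a log axis. Gray symbols are the 2 control pools and red symbols the 3 knockout pools, and bars are 95% Poisson intervals of the count. *STAT5A* was the most abundant in both groups, and *CSF2RA*, *IL5RA*, and *EPOR* lay under 10 CPM in every library.

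Among the α chains, *CSF2RA* (ENSG00000198223), which gives the receptor its specificity for GM-CSF, had only 18 to 49 counts per library. Its level was 6.57 and 5.36 CPM in the control pools, against 6.36, 4.87, and 6.44 CPM in the knockout pools. The groups overlapped fully and their means were nearly equal, at 5.97 ± 0.850 CPM (SD, n = 2) and 5.89 ± 0.880 CPM (SD, n = 3). The log2-fold change was −0.01 (95% interval −0.95 to 0.93), an interval that spans nearly the whole range between the fold thresholds. *CSF2RA* and *IL3RA* lie in the pseudoautosomal region, on chromosome X from 1268800 to 1310381 and from 1336616 to 1382689 of GRCh38, in a sequence that the Y chromosome also carries. Only unique alignments were counted, and 13 of 15 genes listed for this region had counts, among them *SLC25A6* with 2003 to 3018 CPM. In the last 500 bases of the *CSF2RA* transcript, 53 of 451 windows of 50 bases were also found in transcripts of other genes. Whether reads were lost there was not tested. For each of the other 9 genes this number was 0.

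*IL3RA* (ENSG00000185291) encodes the α chain for interleukin-3, known as CD123 on leukemic progenitors. Its level was 21.6 and 39.6 CPM in the control pools, against 25.0, 37.9, and 51.2 CPM in the knockout pools. The control pools differed by 1.84-fold, the knockout pools by 2.04-fold, and the groups overlapped. The means were 30.6 ± 12.8 CPM (SD, n = 2) and 38.0 ± 13.1 CPM (SD, n = 3), a log2-fold change of 0.31 (95% interval −0.59 to 1.21). The sign hung on the controls, since without control pool 1 the log2-fold change was −0.05. Promoters were found by symbol in the RefSeq set used here for 9 members, and not for *CSF2RB*. The *IL3RA* promoter was the only one among them that held the motif TTCNNNGAA, the palindrome that STAT5 binds. Its 250 bases before the start, at chrX:1336535-1336784 on the plus strand of GRCh38, held 2 copies, 199 and 179 bases before the start and not overlapping. They are shown in capitals, since the factors that bind this motif act downstream of the same receptor.

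*IL3RA* promoter: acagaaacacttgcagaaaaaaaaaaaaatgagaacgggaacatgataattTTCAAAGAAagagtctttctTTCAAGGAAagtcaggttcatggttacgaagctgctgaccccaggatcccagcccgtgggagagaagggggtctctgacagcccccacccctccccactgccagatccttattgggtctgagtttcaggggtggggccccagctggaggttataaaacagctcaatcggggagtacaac

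Of all 35116 promoters in the RefSeq table, 6.57% held this motif in a window of the same length, so the match is a description of the sequence and no site of binding. This share is per promoter and not per gene, and *JAK2* and *STAT5A* each had several promoters.

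*IL5RA* (ENSG00000091181, chromosome 3, 3066324 to 3126613), the α chain for interleukin-5, typical of eosinophils and basophils, was among the least abundant of the 10. Control pools 1 and 2 were at 5.0 and 3.58 CPM, and knockout pools 1 to 3 at 7.13, 1.99, and 1.91 CPM. Knockout pool 1 stood above both controls and the other knockout pools below them, a spread of 3.73-fold within the knockout. The log2-fold change of −0.19 (95% interval −1.68 to 1.31) therefore described no pool, and it turned to 0.16 without knockout pool 3 and fell to −1.13 without knockout pool 1. Counts in knockout pools 2 and 3 were 11 each, with Poisson intervals of 0.991 to 3.55 and 0.955 to 3.42 CPM that did not reach the interval of knockout pool 1, 5.37 to 9.29 CPM. *CNTN4-AS1*, which overlaps the last exon of *IL5RA* on the same strand, had at most 3 counts in a library.

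*CSF2RB* (ENSG00000100368, chromosome 22, 36913628 to 36940439) encodes the β chain through which all of these cytokines signal. It was at 19.1 and 14.0 CPM in the control pools, and at 23.0, 23.3, and 20.4 CPM in the knockout pools. Every knockout pool lay above both control pools, though knockout pool 3 exceeded control pool 1 by little. The means were 16.5 ± 3.58 CPM (SD, n = 2) and 22.2 ± 1.61 CPM (SD, n = 3). The log2-fold change was 0.43 (95% interval −0.30 to 1.15, adjusted p = 0.471, edgeR's quasi-likelihood F test, adjusted by Benjamini-Hochberg as in all that follow). It stayed above 0 under all 13 alternatives, between 0.25 and 0.67.

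The α and β chains work as one complex. Ratios of their counts were taken within each library, where depth and scaling cancel. The pairs were chosen with earlier results of these data known. How often ratios of other gene pairs separate the groups was not counted. There were 0.344 and 0.383 *CSF2RA* counts for each *CSF2RB* count in the control pools, against 0.277, 0.209, and 0.316 in the knockout pools. This ratio was lower in every knockout pool, with a difference of mean log2 ratios of −0.46. An exact permutation test, two-sided, gave p = 0.2, which is the smallest value that 2 against 3 libraries allow (adjusted p = 0.467 over 7 ratios). For *IL3RA* to *CSF2RB* the ratio ran from 1.13 to 2.83 in the control and from 1.09 to 2.51 in the knockout pools, a full overlap. For *IL5RA* to *CSF2RB*, the control pools were at 0.262 and 0.255, knockout pool 1 was at 0.311, and knockout pools 2 and 3 were at 0.0853 and 0.0940. In every library, *IL3RA* thus gave more reads than the shared β chain, and *CSF2RA* and *IL5RA* gave fewer.

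**Figure D2:**
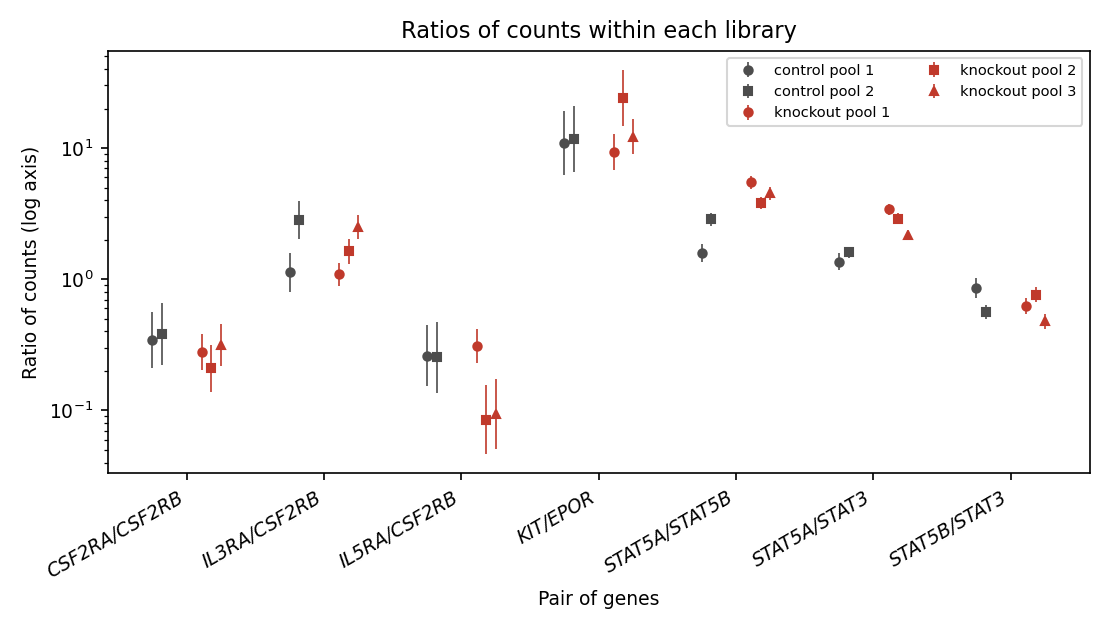
Ratios of counts of pairs of genes within each library, on a log axis. Gray symbols are control pools, red symbols knockout pools, and bars 95% Wilson intervals of counting error. For *STAT5A* to *STAT5B* the control pools lie at 1.59 and 2.86 and the knockout pools between 3.79 and 5.48.

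*EPOR* (ENSG00000187266, chromosome 19, 11377207 to 11384342) encodes the receptor that carries erythroid progenitors through their last divisions. Control pools 1 and 2 were at 4.06 and 3.58 CPM, from 13 and 12 counts. Knockout pools 1 to 3 were at 5.32, 2.89, and 7.66 CPM. Knockout pool 2 was below both controls and the other knockout pools above them. The means were 3.82 ± 0.346 CPM (SD, n = 2) and 5.29 ± 2.38 CPM (SD, n = 3), a log2-fold change of 0.47 (95% interval −0.74 to 1.68). Without knockout pool 3 the log2-fold change was 0.16. Erythroid transcription of *EPOR* is known to depend on GATA1, and its promoter, at chr19:11384315-11384564 on the minus strand of GRCh38, was the only one of the members' with the GATA motif AGATAA, found on either strand in 9.17% of all promoters. The motif lies 78 bases before the start, on the other strand, and is shown in capitals.

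*EPOR* promoter: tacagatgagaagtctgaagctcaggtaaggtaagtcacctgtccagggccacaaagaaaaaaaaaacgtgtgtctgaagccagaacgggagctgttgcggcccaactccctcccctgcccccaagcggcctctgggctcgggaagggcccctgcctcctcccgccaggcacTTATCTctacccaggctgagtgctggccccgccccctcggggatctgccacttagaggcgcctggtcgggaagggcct

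*KIT* (ENSG00000157404, chromosome 4, 54657267 to 54740783) marks early progenitors and mast cells. Its level was 44.7 and 41.7 CPM in the control pools, against 49.8, 69.3, and 93.3 CPM in the knockout pools. All knockout pools were higher, knockout pool 1 by little, and they differed among themselves by 1.87-fold against 1.07-fold between the control pools. The means were 43.2 ± 2.11 CPM (SD, n = 2) and 70.8 ± 21.8 CPM (SD, n = 3). *KIT* had the largest log2-fold change of the 10 in size, 0.71 (standard error 0.34, 95% interval −0.05 to 1.47), and the smallest p-value, but did not pass (adjusted p = 0.247, edgeR). Of the progenitor markers, *CD34* (132 and 112 CPM, then 214, 345, and 168 CPM) and *CD38* (49.1 and 73.6 CPM, then 111, 146, and 73.9 CPM) were also higher in every knockout library, with log2-fold changes of 0.99 and 0.85. *MYB* was lower in each (−0.29) and *CD33* overlapped (−0.09). None of these 4 passed, and their part in the result for *KIT* was not tested. It ranged from 0.44 to 0.90 over 13 alternatives, with adjusted p-values between 0.194 and 0.618. Between 9.37 and 24.0 *KIT* counts were seen for each *EPOR* count, and the groups overlapped in this ratio. Of 8617 other genes with a mean of at least 10 CPM, those nearest to *KIT* in their pattern over the 5 libraries were *BAP1*, *MOSMO*, and *LAMP1*, with root mean square differences of centered log2 CPM of 0.0702, 0.0865, and 0.101. None of these 3 passed either, with log2-fold changes of 0.62, 0.62, and 0.77. They were picked for likeness to *KIT* over the same libraries, so their similar changes follow from the choice.

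**Figure D3:**
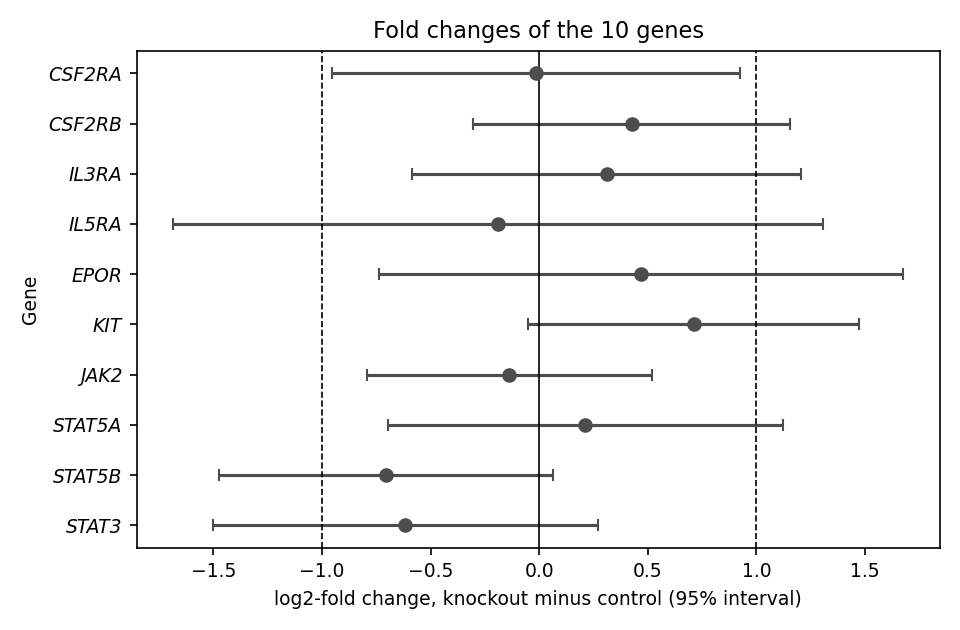
Log2-fold changes of the 10 genes, knockout minus control, with 95% intervals from edgeR's quasi-likelihood fit. Dashed lines mark the fold threshold of the study at −1 and 1, and every interval includes 0.

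*JAK2* (ENSG00000096968, chromosome 9, 4984390 to 5129948), the kinase shared by the GM-CSF and erythropoietin receptors, had the smallest standard error of the 10. It was at 49.1 and 58.1 CPM in the control pools, and at 41.1, 49.6, and 55.5 CPM in the knockout pools. The groups overlapped. Its log2-fold change of −0.14 had the narrowest interval, −0.79 to 0.52, which lies inside both fold thresholds. *INSL6* overlaps the last exon of *JAK2* on the opposite strand but had at most 7 counts in a library.

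*STAT5A* (ENSG00000126561), *STAT5B* (ENSG00000173757), and *STAT3* (ENSG00000168610) lie side by side on chromosome 17, from 42287547 to 42311943, 42199176 to 42288633, and 42313324 to 42388540. *STAT5A* and *STAT5B* start next to each other and are read in opposite directions, overlapping at their starts, and 1380 bases separate the end of *STAT5A* from that of *STAT3*. Their proteins are close relatives, yet no window of 50 bases in the last 500 of either *STAT5* transcript was shared with another gene.

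*STAT5A* was the most abundant of the 10, at 125 and 327 CPM in control pools 1 and 2, and at 228, 296, and 261 CPM in knockout pools 1 to 3. All knockout pools lay between the control pools, which differed by 2.61-fold. The log2-fold change was 0.21 (95% interval −0.70 to 1.12). Without control pool 1 it was −0.31 and without control pool 2 it was 1.09, so the direction was set by which control was used.

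*STAT5B* was at 78.8 and 114 CPM in the control pools, and at 41.6, 78.2, and 57.9 CPM in the knockout pools. All knockout pools were lower, although knockout pool 2 fell short of control pool 1 by less than 1 CPM. The means were 96.5 ± 25.0 CPM (SD, n = 2) and 59.2 ± 18.3 CPM (SD, n = 3), a log2-fold change of −0.70 (standard error 0.34, 95% interval −1.47 to 0.06). It did not pass (adjusted p = 0.254, edgeR), and it kept its sign under 13 alternatives, between −0.94 and −0.38.

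*STAT3* was at 91.9 and 204 CPM in the control pools, and at 66.8, 102, and 121 CPM in the knockout pools. Like *STAT5A* it was over 2-fold higher in control pool 2 than in control pool 1, and the groups overlapped. Its log2-fold change was −0.62 (95% interval −1.50 to 0.27), or 0.10 without control pool 2.

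Within a library, there were 1.59 and 2.86 *STAT5A* counts for each *STAT5B* count in the control pools, against 5.48, 3.79, and 4.5 in the knockout pools. The lowest knockout value, with a 95% Wilson interval of 3.41 to 4.22, stood above the higher control value, whose interval was 2.55 to 3.21, where intervals cover counting error only. The mean log2 ratio was 1.09 higher in the knockout. *STAT5A* was also higher relative to *STAT3* in every knockout pool, with 1.36 and 1.60 counts in the control, against 3.42, 2.90, and 2.16 in the knockout for each *STAT3* count. Both differences gave p = 0.2 in the two-sided exact permutation test, which is the smallest value possible (adjusted p = 0.467 over 7 ratios). For these pairs too, the share of all gene pairs that separate the groups was not counted. For *STAT5B* to *STAT3* the groups overlapped, with 0.857 and 0.560 in the control, against 0.623, 0.765, and 0.480 in the knockout pools.

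By mean level the order was *STAT5A*, *STAT3*, *STAT5B*, *JAK2*, *KIT*, *IL3RA*, *CSF2RB*, *CSF2RA*, *IL5RA*, and *EPOR* in the control pools. In the knockout pools *KIT* moved up past *JAK2* and *STAT5B*, and *EPOR* past *IL5RA*. Of neighbors in this order, *STAT5A* and *STAT3*, *STAT3* and *STAT5B*, and *IL5RA* and *EPOR* overlapped over the control libraries. Over the knockout libraries all neighbors from *STAT3* to *IL3RA* overlapped, as did those from *CSF2RA* to *IL5RA*. The factors and the kinase thus had higher CPM than the receptor chains in the control pools. *JAK2*, the lowest of them, was at 49.1 CPM or more and *KIT*, the highest of the chains, at 44.7 CPM or less. In control pool 1 their Poisson intervals overlapped, at 41.7 to 57.4 CPM for *JAK2* and 37.7 to 52.7 CPM for *KIT*. In control pool 2 they did not, at 50.2 to 66.9 and 35.1 to 49.2 CPM.

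**Figure D4:**
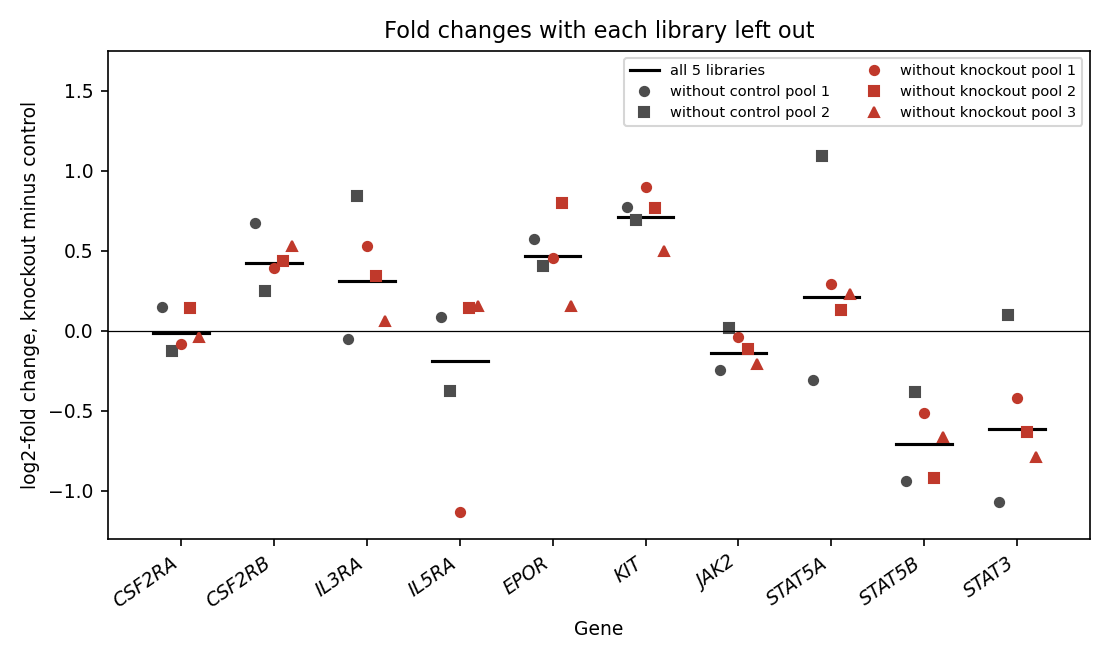
Log2-fold changes of the 10 genes with all libraries (black lines) and with each library left out (symbols, gray for a control and red for a knockout pool). *STAT5A* runs from −0.31 to 1.09 with the control pool that is left out, while *KIT*, *CSF2RB*, and *EPOR* stay above 0 and *STAT5B* stays below.

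The rest of the pathway was described with lists of 84 further genes, of which 78 had a row and 66 were tested. Of these 66, 3 passed, all higher in the knockout (4.17% of all tested genes did so), and all 3 belong to the list of STAT5 target genes. The median log2-fold change over the 66 was 0.00.

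Of the ligands, only *CSF2*, the gene for GM-CSF, was tested, with 7 and 9 counts in the control, against 4, 7, and 1 in the knockout pools. It was lower in every knockout pool, with a log2-fold change of −1.89 that did not pass (adjusted p = 0.174, edgeR). *IL3* and *EPO* had at most 3 counts in any library, and GM-CSF was in the medium of all pools. None of the 6 other receptors tested passed. *IL4R*, the interleukin-4 receptor chain, was at 18.8 and 31.0 CPM in the control and at 32.2, 44.4, and 32.0 CPM in the knockout pools. Of the 6 other JAK and STAT genes, with a median log2-fold change of −0.18, none passed. *JAK1*, the kinase of the interferon and interleukin-6 receptors, was at 256 and 186 CPM in the control and at 119, 159, and 132 CPM in the knockout pools, and its log2-fold change was −0.69.

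Of the 27 adaptors and genes of the RAS, ERK, and PI3K branches, none passed, and their median log2-fold change was −0.01. *PIK3R2*, a regulatory subunit of PI3K, came nearest. It had 1 and 6 counts in the control, against 59, 36, and 23 in the knockout pools, a log2-fold change of 2.49 (adjusted p = 0.0733, edgeR). It moved to 1.76 without control pool 1 and to 4.21 without control pool 2, where it passed (adjusted p = 0.0411, edgeR). *PIK3R2* also passed with DESeq2 (0.0393), with no filter on low counts (0.0205), and with a block for the pool number (0.0232). *AKT1*, a kinase downstream of PI3K, was at 6.88 and 8.94 CPM in the control and at 22.4, 14.6, and 17.4 CPM in the knockout pools, with a log2-fold change of 1.20. *CRKL*, an adaptor, was at 37.5 and 21.8 CPM in the control and at 13.5, 14.1, and 14.8 CPM in the knockout pools, with a log2-fold change of −1.07. Their adjusted p-values were 0.0972 and 0.0998 in edgeR. For *CRKL* this depended on the controls, with −1.38 and a pass without control pool 2 (adjusted p = 0.0421, edgeR), and −0.61 without control pool 1 (0.278).

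None of the 14 negative regulators tested passed, and 5 lay above and 1 below the controls in every knockout pool, beside 22.2% and 19.2% of all tested genes. *SOCS1*, which blocks JAK activity and is itself a STAT target, had 3 and 0 counts in the control, against 20, 6, and 17 in the knockout pools. *PIAS4*, an inhibitor of STAT factors, was at 14.1 and 6.56 CPM in the control and at 21.5, 20.9, and 22.6 CPM in the knockout pools. *CBL*, which marks receptors for degradation, was at 34.4 and 30.7 CPM in the control and at 45.8, 83.8, and 63.7 CPM in the knockout pools. Log2-fold changes of *PIAS4* and *CBL* were 1.07 and 0.98. That of *PIAS4* depended on the controls: it was 1.73 and passed without control pool 1 (adjusted p = 0.0366, edgeR), and was 0.65 without control pool 2. *SOCS1*, at 2.22 with all libraries, was at 1.25 without control pool 2, and without control pool 1 it was compared with a library at 0 counts.

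Among 15 tested STAT5 target genes, 3 rose and none fell, and their median log2-fold change was 0.76. Of all tested genes 4.17% rose. Of the 15, 8 lay above and 2 below the controls in every knockout pool, beside 22.2% and 19.2% of all tested genes. *CISH*, *SOCS1*, *SOCS2*, and *SOCS3* are also in the list of negative regulators, and *TFRC* is also an erythroid marker. The counts of these lists are therefore not separate observations: *CISH* and *SOCS1* lay above, and *SOCS2* below, in both of the former. The list was chosen with earlier results of these data known, so its shares cannot be read against those of all genes as a test. Activity of STAT5 was not measured. *PIM1* and *PIM2*, serine/threonine kinases that promote survival, and *MCL1*, a guard against apoptosis, were those that rose. *PIM1* was at 47.2 and 26.2 CPM in the control and at 201, 96.8, and 126 CPM in the knockout pools. *MCL1* was at 51.6 and 50.4 CPM in the control and at 158, 130, and 183 CPM in the knockout pools. Their log2-fold changes were 1.94 (standard error 0.42, adjusted p = 0.0332) and 1.62 (standard error 0.31, adjusted p = 0.0218) in edgeR. *PIM2* rose most, from 54.7 and 82.3 CPM to 729, 647, and 803 CPM, with a log2-fold change of 3.41 (adjusted p = 0.00457, edgeR). Both *PIM1* and *MCL1* lost their call without knockout pool 1 (adjusted p = 0.101 and 0.0683, edgeR) and without knockout pool 3 (0.0702 and 0.0813), and *PIM1* also without control pool 2 (0.0736). *PIM2* kept its call under every alternative run.

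**Figure D5:**
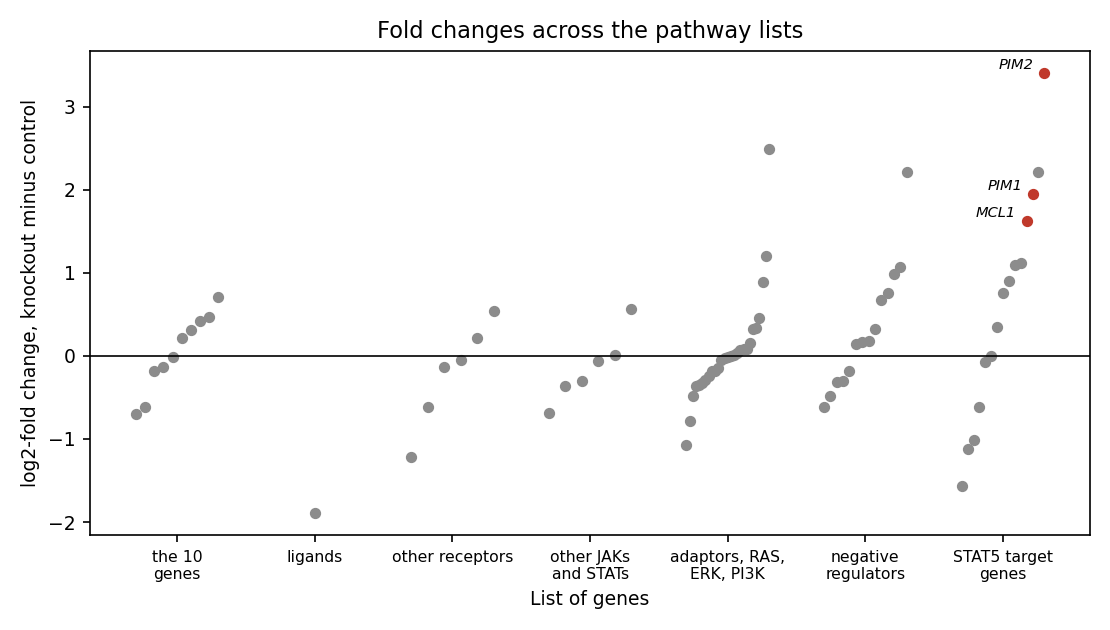
Log2-fold changes, knockout minus control, of the 10 genes and of the tested genes of each pathway list, in order within a list. Red points passed both thresholds, and the only ones are *PIM1*, *PIM2*, and *MCL1* among the STAT5 target genes.

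Of the other STAT5 target genes, *CISH*, *SOCS2*, *MYC*, and *BCL2L1* are named here after their values were seen. *CISH*, the feedback inhibitor that binds the activated receptor, was at 23.1 and 27.4 CPM in the control and at 49.5, 35.6, and 43.0 CPM in the knockout pools, higher in each. *SOCS2*, of the same family, was at 32.2 and 38.1 CPM in the control and at 26.6, 22.0, and 20.4 CPM in the knockout pools, lower in each. *MYC*, also lower in each, was at 90.4 and 61.7 CPM in the control and at 43.2, 35.6, and 34.3 CPM in the knockout pools. Its log2-fold change of −1.01 did not pass (adjusted p = 0.0847, edgeR). *BCL2L1*, which encodes the survival factor BCL-XL, was at 74.7 and 299 CPM in the control and at 42.4, 82.1, and 65.8 CPM in the knockout pools, where knockout pool 2 lay above control pool 1. For *CISH*, *SOCS2*, and *BCL2L1* the log2-fold changes were 0.76, −0.61, and −1.56, with adjusted p-values of 0.181, 0.255, and 0.109 in edgeR. *BCL2L1* passed with DESeq2 (adjusted p = 0.0301) and with a block for the pool number (0.0379, edgeR). The value of *BCL2L1* rested on control pool 2, since without that pool it was −0.21 (adjusted p = 0.781, edgeR), and without control pool 1 it was −2.23 and passed (0.0124). Promoters were found by symbol in the RefSeq set used here for 11 of the 17 listed target genes. *MCL1*, *MYC*, and *SOCS2* were among those not found and so not searched. The motif TTCNNNGAA was in promoters of *CISH* and *BCL6*, and not in those of *PIM1* or *PIM2*. It was in 6.57% of all promoters, a share per promoter and not per gene. *CISH* had 4 copies, 241, 230, 129, and 112 bases before the start, which do not overlap, at chr3:50611775-50612024 on the minus strand of GRCh38. They are shown in capitals for comparison with the 2 copies before *IL3RA*.

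*CISH* promoter: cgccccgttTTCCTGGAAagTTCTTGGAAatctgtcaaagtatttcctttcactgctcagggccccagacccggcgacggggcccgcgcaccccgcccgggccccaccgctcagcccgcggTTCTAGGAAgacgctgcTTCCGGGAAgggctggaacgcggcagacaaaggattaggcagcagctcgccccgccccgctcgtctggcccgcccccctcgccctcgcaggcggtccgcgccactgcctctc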

How the data were processed

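RNA was measured in 5 TF-1 libraries by QuantSeq 3′ mRNA sequencing. The authors trimmed adapters with BBduk, aligned the reads with HISAT2 2.1.0 to GRCh38, dropped non-unique alignments with SAMtools 1.10, and deposited raw counts per Ensembl gene. The counting program, annotation, strand setting, and handling of duplicates are not given in the sources used here. The authors also sequenced a further control pool and a further knockout pool, and left both out after an outlier test. Those pools were not analysed here, so the spread within groups is that of the pools kept.

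All genes were fitted with edgeR 4.0.16 in R 4.3.3 (filterByExpr at a minimum count of 10, TMM, quasi-likelihood test on the condition alone, Benjamini-Hochberg adjustment over 14391 genes), tested on simulated data first. Intervals of log2-fold changes derive from the quasi-likelihood F statistic. Poisson intervals, Wilson intervals, and the limit of 3 counts (0.389 to 0.938 CPM) cover counting error only, since PCR copies cannot be told from separate molecules. The pools came from different clones of one cell line, so p-values measure only the spread between these pools. Members, lists, ratios, and motifs were chosen with earlier results of these data known. The 10 members and *MTSS1* were named throughout. Named from the lists were all genes that passed or, where none did, up to 3 with the largest change among those whose groups did not overlap, and 3 genes of at least 10 CPM nearest in pattern to the member of smallest p-value. Single cell type markers were named after their values were seen. Names and positions are from GENCODE release 44, promoters from RefSeq (GRCh38.p14). Alternatives were DESeq2 1.42.0, limma-voom (limma 3.58.1), other scaling and filters, thinned counts, a block for the pool number, and each library left out.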

Additional observations from a re-analysis of the deposited data

How the results depend on the processing

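The count of members that passed was 0 under every alternative run, and the lowest adjusted p-value of any member under any of them was 0.0910, for *STAT3*. Of 130 member fold changes recomputed, 116 kept their sign. *CSF2RA* turned to 0.015 with DESeq2, to 0.13 with no filter on low counts, and to 0.062 with at least 10 counts in every library, and *JAK2* turned to 0.012 with no filter and to 0.027 with thinned counts. With 1 library left out, log2-fold changes ranged from −0.13 to 0.15 for *CSF2RA*, −0.051 to 0.84 for *IL3RA*, −1.13 to 0.16 for *IL5RA*, −0.24 to 0.017 for *JAK2*, −0.31 to 1.09 for *STAT5A*, and −1.07 to 0.10 for *STAT3*. Without TMM scaling the median of all genes moved from −0.03 to −0.17. The number of genes that passed in the whole table was 745, or 1286 with DESeq2, 1374 with no filter, 480 with thinned counts, and 111 (without knockout pool 1) to 1349 (without control pool 1) with a library left out. For the pathway lists it was 3, or 5 with DESeq2, and 1 to 6 with a library left out. With the pool number as a replicate block, 1094 genes and 5 pathway genes passed. The pools share only a number: differences between pools 1 and 2 had a Pearson's r of 0.17 across genes between the groups, and nothing states that same-numbered pools were handled together. Apart from where fewer genes or libraries entered, the cause was not tested. *CSF2RA*, *IL5RA*, and *EPOR* had 11 to 55 counts per library. For *IL5RA* and *EPOR* the knockout pools also differed by more than Poisson counting error. Poisson intervals of *EPOR* reached 4.69 CPM in knockout pool 2 and began at 5.56 CPM in knockout pool 3. Such intervals take each read as a separate molecule, so PCR copies could make the true counting error larger.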
